A study of Mus musculus with 24 samples.

Results

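The copper transporters and chaperones are described here as 10 genes picked by name from the 55291 gene symbols of the count table: the exporters Atp7a and Atp7b, the importers Slc31a1 and Slc31a2, the cytosolic chaperones Atox1 and Ccs, the mitochondrial delivery genes Cox17, Sco1 and Sco2, and Commd1. RNA-seq was made from C2C12 myoblasts, an established mouse muscle precursor line, in 4 cell lines. These were a control line with a scrambled shRNA (scr) and lines with knockdown (KD) of Baf180, a subunit of the PBAF form of the SWI/SNF chromatin remodelling complex (gene Pbrm1), of Baf250a, a subunit of BAF (gene Arid1a), and of Brd9, a subunit of ncBAF. Each line was kept for 48 h without added metal (NT), with CuSO4 at 100 µM or with ZnSO4 at 50 µM, with 2 independent replicates in each of the 12 conditions and 24 libraries in all. The methods describe stable lentiviral shRNA expression under puromycin selection, which all 4 lines share, and 2 shRNAs for each target, without saying which was sequenced. The labels instead name primary myoblasts and a lipofectamine knockdown. Whether the 2 replicates of a KD condition came from 1 transduced population is not stated, so a KD effect cannot be told apart from a difference between populations. Groups were taken from the sample titles, which a separate treatment tag contradicts in 16 of the 24 libraries.

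Copper enters cells as the reduced ion through CTR1, the product of Slc31a1, and is then handed from protein to protein so that little of it is free. ATOX1 carries copper to the ATPases ATP7A and ATP7B, which load it into secreted enzymes in the Golgi and pump it out of the cell when copper is high. CCS delivers copper to superoxide dismutase SOD1, and COX17 passes it to SCO1 and SCO2 for the copper centres of cytochrome c oxidase, the last enzyme of the respiratory chain. Much of the response of these proteins to copper is known to occur by trafficking and protein turnover, which RNA counts do not measure. In muscle cells, copper is needed for mitochondrial enzymes and ATP7A is known to be the main exporter, whereas ATP7B acts mainly in liver.

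Total counts per library ran from 12719173 to 75179394, apart from 495778 in replicate 2 of the Baf250a KD Zn condition. That library detected 12613 genes, against at least 20114 in the others, and gave 115 counts over the 10 genes. The targeted genes were lower than in untreated scr cells in each untreated KD line, by edgeR's quasi-likelihood test: Pbrm1 by a log2 fold change of -0.76 (adjusted p = 0.00274), Arid1a by -1.53 (adjusted p = 5.31e-08) and Brd9 by -0.76 (adjusted p = 0.006). With the offset for GC content and length described below they were -1.32, -1.78 and -0.68, all called. Pbrm1 was also called higher in untreated Baf250a KD (0.82) and Brd9 KD (0.79), and lower with Cu in Baf180 KD (-0.56). With the offset these were 0.12, 0.26 and -0.11, of which only the Brd9 KD value was called. Brd9 was called higher in untreated Baf250a KD (0.38, and 0.39 with the offset, still called). The myoblast genes Myod1 (68.2 to 153 CPM, read counts scaled by TMM to a common library size) and Des (777 to 2467 CPM) were detected in every library, whereas Pax7, which the study used as a myoblast marker, reached at most 5.40 CPM. Against untreated scr, Des was at -1.11, -1.52 and -0.87 on the log2 scale in untreated Baf180 KD, Baf250a KD and Brd9 KD cells and Cdh15 at -0.55, -1.61 and -0.50, all called lower, while Msc was called only in Baf250a KD (-3.77). Pax7 was called higher in Baf180 KD (0.92) and Brd9 KD (1.41) and lower in Baf250a KD (-1.21). Myod1 was called higher in Baf250a KD (0.35) and lower in Brd9 KD (-0.30). Myf5 was called lower in Baf180 KD (-1.27) and Baf250a KD (-1.77). Of the markers of other cell types, Pecam1, Cdh5, Ptprc and Epcam were at or below 0.377 CPM and Cd68 was at 2.98 to 6.14 CPM. The fibroblast-associated genes ran from 3.81 to 66.2 CPM (Pdgfra) and from 5.61 to 97.2 CPM (Ly6a), and both were called higher in the 3 untreated KD lines, in the same order by 2.28, 3.61 and 0.87 for Pdgfra and by 0.99, 3.11 and 1.15 for Ly6a. Zn raised the metallothionein gene Mt2 in scr cells by a log2 fold change of 3.40 (adjusted p = 3.75e-05), and Mt2 over the 4 lines changed by 0.38 with Cu (adjusted p = 0.303). The dependence of log2 expression on GC content had a slope from -0.337 to 0.342 per 10 percentage points of GC among the libraries, and it was 0.342 in scr NT replicate 2 against 0.094 in scr NT replicate 1. Values after an offset for GC content and length are therefore given beside the results that they change.

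The promoters of the main exporter and the importer are shown because these are the 2 genes through which copper leaves and enters most cells. They are RefSeq windows of 250 bases before and 50 after the annotated start on GRCm38.p6, and 8 of the 10 genes have an entry in that table (Ccs and Cox17 do not). Capitals mark matches on either strand to the cores TGCGCNC and TGCACNC of the metal response element, the sequence known to be bound by the zinc-sensing factor MTF1. The Atp7a window is chrX:106026974-106027273 on the plus strand and the Slc31a1 window is chr4:62360451-62360750 on the plus strand.
Atp7a: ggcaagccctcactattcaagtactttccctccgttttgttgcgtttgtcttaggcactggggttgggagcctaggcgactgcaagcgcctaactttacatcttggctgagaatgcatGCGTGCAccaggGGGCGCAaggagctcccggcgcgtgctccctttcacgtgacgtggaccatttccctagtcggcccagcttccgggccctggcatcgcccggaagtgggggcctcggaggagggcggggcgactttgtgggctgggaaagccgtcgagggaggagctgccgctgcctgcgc
Slc31a1: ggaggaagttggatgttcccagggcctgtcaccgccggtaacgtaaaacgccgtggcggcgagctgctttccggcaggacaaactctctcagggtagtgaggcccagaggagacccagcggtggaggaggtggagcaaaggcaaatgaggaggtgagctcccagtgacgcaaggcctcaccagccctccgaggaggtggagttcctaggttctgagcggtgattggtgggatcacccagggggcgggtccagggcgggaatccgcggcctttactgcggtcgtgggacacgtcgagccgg
The Atp7a window held 2 matches, both on the minus strand: TGCGCCC at -120 and TGCACGC at -132 from the start. The Slc31a1 window held none. Atp7b and Slc31a2 held 1 match each, and Commd1 held 1 in each of its 2 windows, while the Atox1, Sco1 and Sco2 windows held none. Among 32851 promoter windows of the same length, 15.4% held TGCGCNC, 12.6% held TGCACNC and 25.7% held either, so a match is common and marks no binding site by itself.

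In the GENCODE M21 annotation of GRCm38, Atp7a lies at chrX:106027276-106124926 on the plus strand, Atp7b at chr8:21992785-22060305 on the minus strand and Slc31a2 at chr4:62262562-62298411, next to Slc31a1 at chr4:62360727-62391769, both on the plus strand. Atox1 lies at chr11:55446641-55461239 on the minus strand and Ccs at chr19:4825366-4839332 on the minus strand. Cox17 lies at chr16:38346991-38352763 on the plus strand, Sco1 at chr11:67052670-67067070 on the plus strand, Sco2 at chr15:89371637-89373846 on the minus strand and Commd1 at chr11:22896136-22982382 on the minus strand. Counts were taken over exons by strand, and 68.3% of the exon bases of Sco2 overlap Tymp on the same strand, so its value is uncertain. The same overlap was 5.0% for Commd1 (Gm28048) and 4.5% for Cox17 (Gm21987).

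Levels between genes were compared per length, as mean RPKM over the union of exons without the shallow library. Atox1, the cytosolic chaperone that feeds the exporters, had the highest level at 80.5 RPKM, followed by the importer Slc31a1 at 16.6 RPKM and Ccs at 10.5 RPKM. Sco2 (6.87), Atp7a (4.99), Sco1 (4.85), Commd1 (4.09), Slc31a2 (3.42) and Cox17 (2.98 RPKM) followed. The Sco2 level may be too low if read pairs from the bases shared with Tymp were not counted. Atp7b was at 0.0343 RPKM. The order of the genes below Atox1 depends on the transcript taken as length. On the longest coding transcript Ccs was at 17.6, Slc31a1 at 17.1, Atp7a at 8.89, Sco1 at 7.89, Commd1 at 5.38 and Cox17 at 4.66 RPKM. For Cox17 the annotated coding transcripts run from 444 to 3690 bases, so its level per length is the least certain. Its annotated exons also merge into 1 block of 5773 bases that spans the whole gene.

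**Figure D1:**
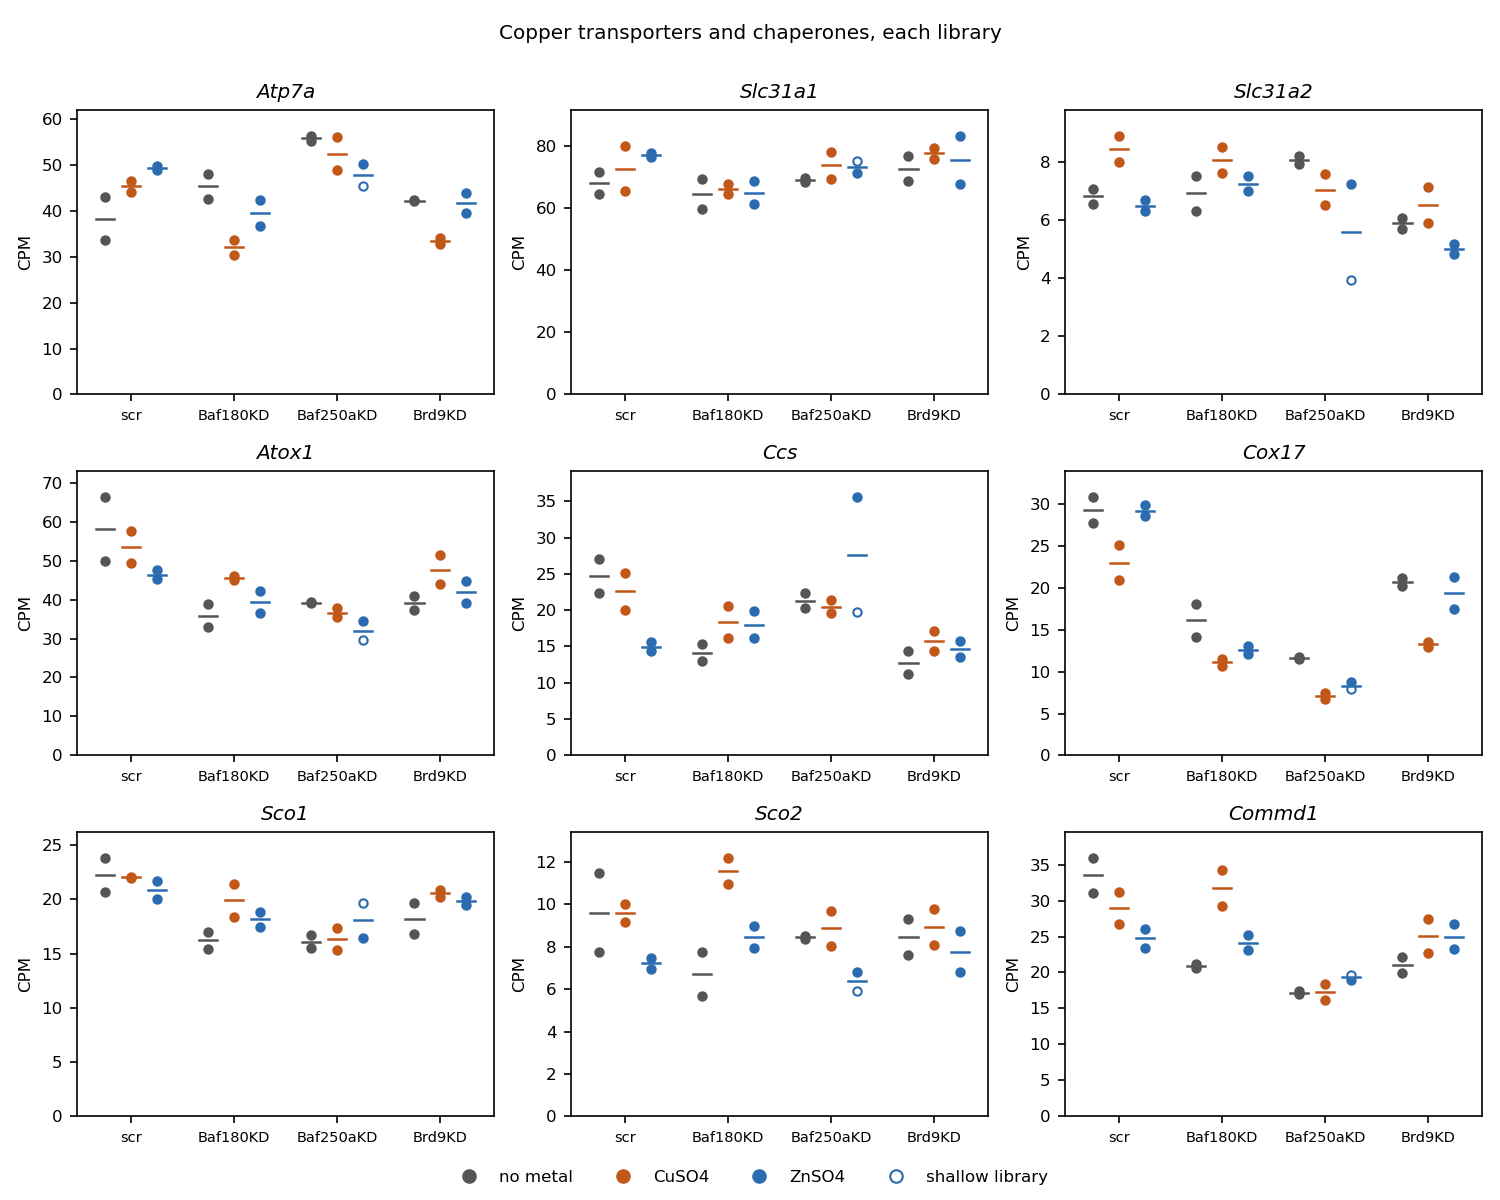
CPM (TMM-scaled, linear axis from 0) of 9 of the genes in each of the 24 libraries, by cell line and treatment; points are libraries, dashes are means of 2 and the open symbol is the shallow Baf250a KD Zn library. Slc31a1 stays between 59.6 and 83.2 CPM, while Cox17 runs from 30.85 CPM in an untreated scr library to 6.74 CPM in a Baf250a KD library with Cu.

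Over 22 comparisons, 209 pairs of gene and comparison could be tested and 47 were called at a Benjamini-Hochberg adjusted p under 0.05 over all genes of the fit by edgeR's quasi-likelihood test. Of these, 44 were also called by DESeq2 and 30 also with the GC and length offset. The untreated KD lines held the largest group of calls: of 27 pairs tested against untreated scr, 13 were lower and 1 higher, and 11 of the 13 were also lower with the offset. These 3 comparisons share the 2 untreated scr libraries. In the same comparisons Pdgfra (up to 3.61) and Ly6a (up to 3.11) were higher and Des (to -1.52) and Cdh15 (to -1.61) lower in all 3 lines. Of 7 markers of other cell types, 3 could be tested, and the third, Cd68, was lower in Baf250a KD (-0.74). Of 6 myoblast markers, 1 was higher and 3 lower in Baf180 KD, 1 and 5 in Baf250a KD and 1 and 3 in Brd9 KD cells. Of 6 genes of differentiated myotubes, 3 were higher and 0 lower in Baf180 KD, 2 and 2 in Baf250a KD and 0 and 5 in Brd9 KD cells. With Cu in Baf180 KD, 0 of these 6 were higher and 3 lower (13.8% of all genes called). The part of all these markers in the copper gene results was not tested. The 3 untreated comparisons also had a high background. In untreated Baf180 KD, 41% of all genes were called, and 5 of 9 copper genes were lower. In untreated Baf250a KD, 57.8% were called, with 1 copper gene higher and 4 lower. In untreated Brd9 KD, 29.2% were called, with 4 of 9 lower and none higher. The medians of the copper genes were -0.54, -0.25 and -0.28 on the log2 scale, against 0.03, 0.00 and 0.01 over all genes tested.

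With Cu, the Baf180 KD line had the most calls among the copper genes, with 2 higher and 2 lower of 9, where 13.8% of all genes were called. With the offset 1 was called, and with the offset and the replicate number as a block 4 were (10.1% of all genes). The shares of all genes called with the offset alone are not given here, so those counts have no background. Deviations of same-numbered libraries of this line correlated at 0.166 to 0.315, and their part in this change was not tested. Unless given otherwise, shares of all genes are from fits without the offset. In Baf250a KD cells, 1 of 9 was lower, with 1.27% of all genes called. By edgeR no copper gene was called with Cu in scr cells (0.0333% of all genes called, 1 copper gene at an unadjusted p under 0.05, 0 by DESeq2) or in Brd9 KD cells (0.274% of all genes, 2 at an unadjusted p under 0.05, 1 by DESeq2). Over the 4 lines together, 1 of 10 was lower with Cu, where 3.85% of all genes were called. With Zn, 1 of 9 was lower in scr cells (17.6% of all genes called) and 1 of 9 higher in Baf250a KD cells (15.9%; 1 higher and 1 lower with the offset). By edgeR none was called with Zn in Baf180 KD cells (0.0197% of all genes, 1 at an unadjusted p under 0.05, 0 by DESeq2), in Brd9 KD cells (0.0334%, 1 and 0) or over the 4 lines (0.0847%, 2 and 0). The number of calls is thus read against very unequal backgrounds, and a call in one line and not in another is not a difference between lines unless that difference was tested. Where the libraries of a group are said below to lie above or below those of another, the share of all genes separated so is not given. Such separations have no background and are descriptions only.

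With all 3 treatments fitted together and treatment as a block, the KD lines were compared with scr over 12 libraries each. In Baf180 KD, 3 of the copper genes tested were lower and none higher, with 41.3% of all genes called. In Baf250a KD, 1 was higher and 4 lower, with 51.8% of all genes called. In Brd9 KD, 4 were lower, with 32.8% called. With the offset 5 were called in Baf180 KD, 4 in Baf250a KD and 7 in Brd9 KD. The shares of all genes called with the offset are not given here, so these counts cannot be read against a background. These comparisons use the same untreated libraries as the comparisons of untreated cells.

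**Figure D2:**
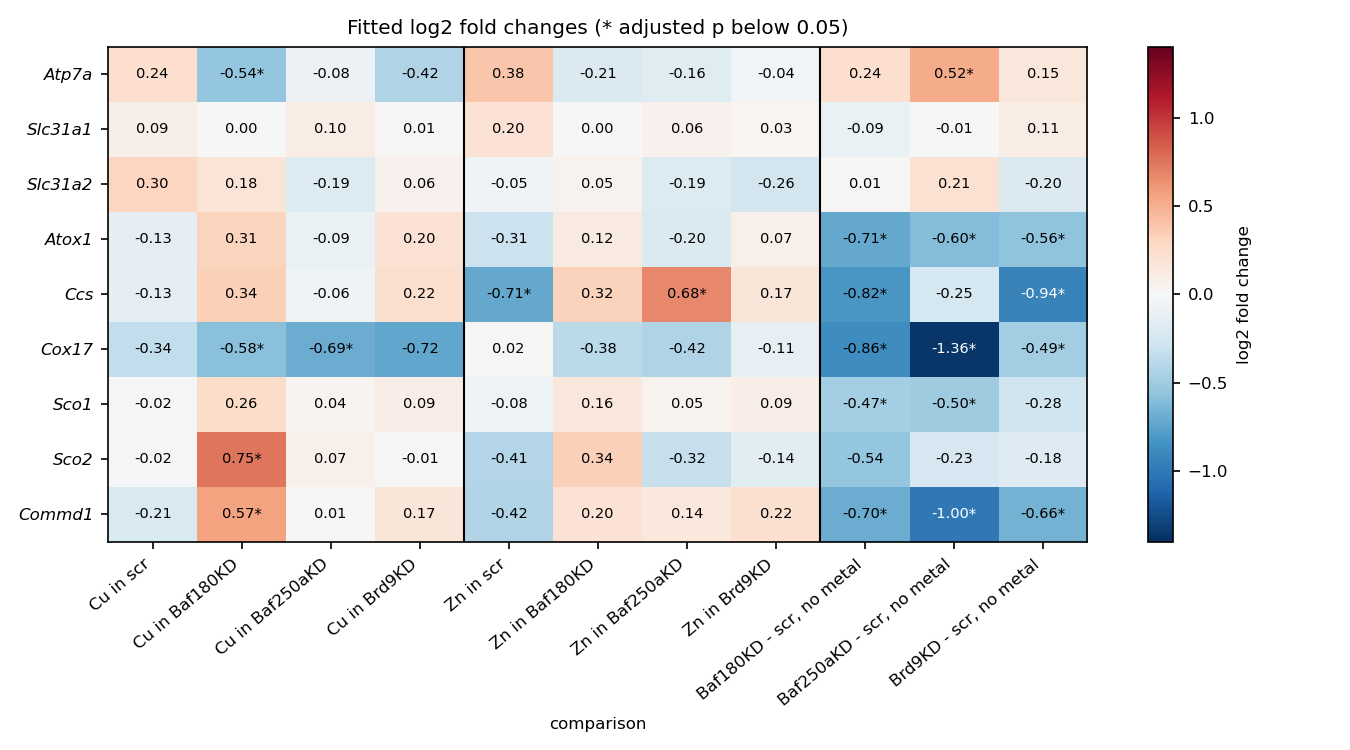
Heat map of log2 fold changes from edgeR for 9 genes (rows) against 11 comparisons (columns: Cu against NT and Zn against NT in each of the 4 lines, then each untreated KD line against untreated scr); an asterisk marks an adjusted p under 0.05. The Cox17 row is negative in all 4 Cu columns and all 3 untreated KD columns, and the Slc31a1 row carries no asterisk.

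Atp7a, the exporting ATPase that is mutated in Menkes disease, fell with Cu in Baf180 KD cells. It was at 42.67 and 48.11 CPM untreated and at 30.50 and 33.72 CPM with Cu, so that both Cu libraries lay below both untreated ones. The log2 fold change was -0.54 (0.689 times the untreated level, SE 0.117, edgeR adjusted p = 0.0192). With the GC and length offset it was -0.30 (edgeR adjusted p = 0.0869), and with the offset and the replicate block -0.30 (0.0434). Without Baf180 KD Cu replicate 1 it was -0.47, and without NT replicate 2 it was -0.42, and neither was called. In Brd9 KD cells Atp7a was at 42.18 and 42.35 CPM untreated and at 34.18 and 32.70 CPM with Cu, and the log2 fold change of -0.42 (SE 0.0975) did not pass (edgeR adjusted p = 0.144). In scr cells the 2 untreated libraries were far apart, at 43.11 and 33.56 CPM, and the Cu libraries at 44.20 and 46.48 CPM lay above both. The change in scr cells was 0.24 (SE 0.135, edgeR adjusted p = 0.536). In Baf250a KD cells Atp7a was at 55.26 and 56.38 CPM untreated and at 56.09 and 48.83 CPM with Cu, and the groups overlapped.

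Untreated Baf250a KD cells had the highest Atp7a level of the untreated lines. Against untreated scr the log2 fold change was 0.52 (SE 0.128, edgeR adjusted p = 0.00397), the one higher call among the untreated comparisons. The offset reduced it to 0.15 (edgeR adjusted p = 0.151), and it was 0.51 without Baf250a KD NT replicate 1 and 0.50 without NT replicate 2, no longer called in either. Over the 3 treatments the difference was 0.28 (SE 0.0952, edgeR adjusted p = 0.0232), and 0.08 with the offset (edgeR adjusted p = 0.261). In Baf180 KD and Brd9 KD the differences over the 3 treatments were -0.21 (edgeR adjusted p = 0.193) and -0.19 (0.169), and they passed with the offset (-0.22, 0.0127, and -0.25, 0.00534). The Baf250a KD call without the offset was lost without any 1 of scr NT replicate 1 (0.28), scr NT replicate 2 (0.18), Baf250a KD Cu replicate 1 (0.26), NT replicate 1 (0.25) or NT replicate 2 (0.24). With Zn, Atp7a was at 48.93 and 49.73 CPM in scr cells, above both untreated libraries (0.38, edgeR adjusted p = 0.0855). It was at 36.72 and 42.33 CPM in Baf180 KD, at 50.21 and 45.35 CPM in Baf250a KD and at 39.63 and 43.99 CPM in Brd9 KD cells, and none of these passed the test.

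Atp7b, the ATPase mutated in Wilson disease, was at or near 0 in all libraries, with 0 to 16 counts (0 to 0.659 CPM). It passed the filter on low counts in fits of the Brd9 line and of all 24 libraries. No test of it passed, and the SE of its log2 fold changes in Brd9 KD cells was 1.38 with Cu and 1.15 with Zn, so changes of a moderate size were not detectable at this depth.

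Slc31a1, the high-affinity importer CTR1, had no call in any of the 22 comparisons. In scr cells it was at 64.32 and 71.58 CPM untreated, 79.93 and 65.29 CPM with Cu and 77.60 and 76.52 CPM with Zn. In Baf180 KD cells it was at 69.42 and 59.64 CPM untreated, 64.53 and 67.74 CPM with Cu and 68.54 and 61.27 CPM with Zn. In Baf250a KD cells the values were 69.66 and 68.29 CPM untreated, 78.10 and 69.31 CPM with Cu and 71.28 and 74.92 CPM with Zn. The Cu and untreated values overlapped in all 4 lines, since in Brd9 KD cells they were 75.80 and 79.37 CPM against 76.76 and 68.53 CPM. Without the offset its metal responses lay between -0.0027 and 0.20 on the log2 scale, with SE of about 0.1. The response to Cu over the 4 lines was 0.07 (edgeR adjusted p = 0.572). With the offset and the replicate block, the change with Cu in Baf180 KD was 0.27 (SE 0.0861, edgeR adjusted p = 0.0744). With the offset alone, the change with Zn was -0.23 in scr (edgeR adjusted p = 0.44) and 0.16 in Baf180 KD cells (0.72). In untreated cells the differences from scr were -0.09 in Baf180 KD, -0.01 in Baf250a KD and 0.11 in Brd9 KD cells. With the GC and length offset they were -0.40 (edgeR adjusted p = 0.0269), -0.37 (0.00595) and -0.19 (0.249), so a lower level in Baf180 KD and Baf250a KD cells was called only on that scale.

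Slc31a2, the CTR2 protein of internal membranes that is related to CTR1, was at 4.83 to 8.89 CPM outside the shallow library, where it was at 3.94 CPM. Its 1 call was in Brd9 KD against scr over the 3 treatments, with a log2 fold change of -0.33 (0.798 times, SE 0.0906, edgeR adjusted p = 0.0136), and -0.33 with the offset (edgeR adjusted p = 0.00815). The Brd9 KD libraries were at 5.69 and 6.08 CPM untreated, 7.13 and 5.88 CPM with Cu and 5.17 and 4.83 CPM with Zn. The scr libraries were at 7.07 and 6.55 CPM, 8.89 and 7.98 CPM, and 6.67 and 6.31 CPM in the same order, each pair above the Brd9 KD pair of its treatment.

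Atox1, the carrier of copper to ATP7A, was lower in each untreated KD line than in untreated scr. The scr libraries were at 49.87 and 66.35 CPM. Baf180 KD was at 38.86 and 32.95 CPM, Baf250a KD at 39.35 and 39.00 CPM and Brd9 KD at 40.99 and 37.41 CPM, all below both scr libraries. The log2 fold changes were -0.71 in Baf180 KD (0.610 times, SE 0.145, edgeR adjusted p = 0.00238), -0.60 in Baf250a KD (SE 0.134, edgeR adjusted p = 0.0019) and -0.56 in Brd9 KD cells (SE 0.144, edgeR adjusted p = 0.0228). The higher of the untreated scr libraries, replicate 2, is the one with the GC slope of 0.342. With the offset the values were -0.29 (edgeR adjusted p = 0.0305), 0.01 (0.938) and -0.11 (0.374). In Brd9 KD the call was also lost without scr NT replicate 2 (-0.35), Brd9 KD NT replicate 1 (-0.63) or NT replicate 2 (-0.52).

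Over the 3 treatments, Atox1 was lower in all 3 KD lines with and without the offset. In Baf180 KD the difference was -0.40 (edgeR adjusted p = 0.00593), and -0.41 with the offset (9.45e-05). In Baf250a KD it was -0.52 (edgeR adjusted p = 0.000215), and -0.31 with the offset (0.00981). In Brd9 KD it was -0.30 (edgeR adjusted p = 0.0246), and -0.18 with the offset (0.0106). The Brd9 KD call was lost in the absence of scr Cu replicate 1 (-0.28), Brd9 KD Cu replicate 1 (-0.28), NT replicate 1 (-0.27) or NT replicate 2 (-0.25). With Cu, Atox1 was at 46.06 and 45.05 CPM in Baf180 KD cells, above both untreated libraries, and its log2 fold change of 0.31 did not pass (edgeR adjusted p = 0.0779). With the replicate block it passed (0.31, edgeR adjusted p = 0.0204), but not with the offset and block (0.15, 0.358). With Zn in Baf250a KD cells Atox1 was at 34.42 and 29.57 CPM (-0.20, edgeR adjusted p = 0.302), which passed with the offset (-0.42, 0.0301).

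Ccs, the copper chaperone of SOD1, was called lower with Zn in scr cells and higher in Baf250a KD cells, and each call was lost under some alternatives. In scr cells it was at 22.34 and 27.11 CPM untreated and 15.57 and 14.35 CPM with Zn, which is -0.71 on the log2 scale (0.611 times, SE 0.15, edgeR adjusted p = 0.029). With the offset this was -0.43 (edgeR adjusted p = 0.132). The call was lost without scr NT replicate 2 (-0.59), scr Zn replicate 1 (-0.77) or scr Zn replicate 2 (-0.65). In Baf250a KD cells Ccs was at 22.31 and 20.35 CPM untreated and at 35.60 and 19.72 CPM with Zn, so the 2 Zn libraries lay on both sides of the untreated ones. The change of 0.68 on the log2 scale (SE 0.142, edgeR adjusted p = 0.00198) rested on Zn replicate 1: without it the value was -0.11, from the shallow library alone, and without the shallow library it was 0.73. DESeq2 did not call it (adjusted p = 0.447).

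In untreated cells Ccs was lower in Baf180 KD (13.04 and 15.28 CPM) and Brd9 KD (14.37 and 11.15 CPM) than in scr. The log2 fold changes were -0.82 (SE 0.157, edgeR adjusted p = 0.00166) and -0.94 (SE 0.165, edgeR adjusted p = 0.00573), and -0.63 and -0.72 with the offset, both still called. The Brd9 KD call was lost without NT replicate 2 of that line (-0.80). In Baf250a KD the difference was -0.25 (edgeR adjusted p = 0.135). Over the 3 treatments Ccs was lower in Brd9 KD (-0.50, edgeR adjusted p = 0.0119; -0.47 with the offset, 0.00138). In Baf180 KD it was -0.29 (edgeR adjusted p = 0.16) and passed only with the offset (-0.38, 0.00945).

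Cox17, the intermembrane space chaperone that hands copper to SCO1, fell with Cu over the 4 lines and was lower in every KD line than in scr. In scr cells it was at 30.85 and 27.70 CPM untreated and at 20.87 and 25.11 CPM with Cu. In Baf180 KD cells it was at 14.16 and 18.12 CPM untreated and at 10.65 and 11.55 CPM with Cu. In Baf250a KD cells it was at 11.72 and 11.54 CPM untreated and at 7.50 and 6.74 CPM with Cu, and in Brd9 KD cells at 20.21 and 21.11 CPM against 12.92 and 13.55 CPM. Both Cu libraries lay below both untreated libraries in 4 of 4 lines, but the share of all genes separated in this way is not given. Over the 4 lines the log2 fold change was -0.56 (0.676 times, SE 0.0721, edgeR adjusted p = 2.84e-05). With the offset it was -0.55 (edgeR adjusted p = 3.62e-06), and without any 1 library it stayed between -0.60 and -0.52 and was called each time.

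Within single lines the Cox17 response to Cu was called in Baf180 KD (-0.58, SE 0.151, edgeR adjusted p = 0.0329) and Baf250a KD (-0.69, SE 0.151, edgeR adjusted p = 0.0136). In Brd9 KD it was -0.72 (SE 0.117, edgeR adjusted p = 0.0524; DESeq2 adjusted p = 0.00729) and in scr -0.34 (SE 0.13, edgeR adjusted p = 0.476). With the offset the Baf180 KD value was -0.47 (edgeR adjusted p = 0.0692; 0.0452 with the replicate block added), the Baf250a KD value -0.68 (0.016) and the Brd9 KD value -0.66 (0.0289). The Baf180 KD call was lost without Cu replicate 1 (-0.53), Cu replicate 2 (-0.63) or NT replicate 2 (-0.36), and the Baf250a KD call without Cu replicate 2 (-0.64), NT replicate 1 (-0.69) or NT replicate 2 (-0.71). The responses of the KD lines did not differ from that of scr by a test of the difference: -0.18 in Baf180 KD (edgeR adjusted p = 0.539), -0.33 in Baf250a KD (0.658) and -0.31 in Brd9 KD (0.37). With Zn, Cox17 changed by 0.02 in scr, -0.38 in Baf180 KD, -0.42 in Baf250a KD and -0.11 in Brd9 KD cells, none called, and by -0.22 over the 4 lines (edgeR adjusted p = 0.602).

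**Figure D3:**
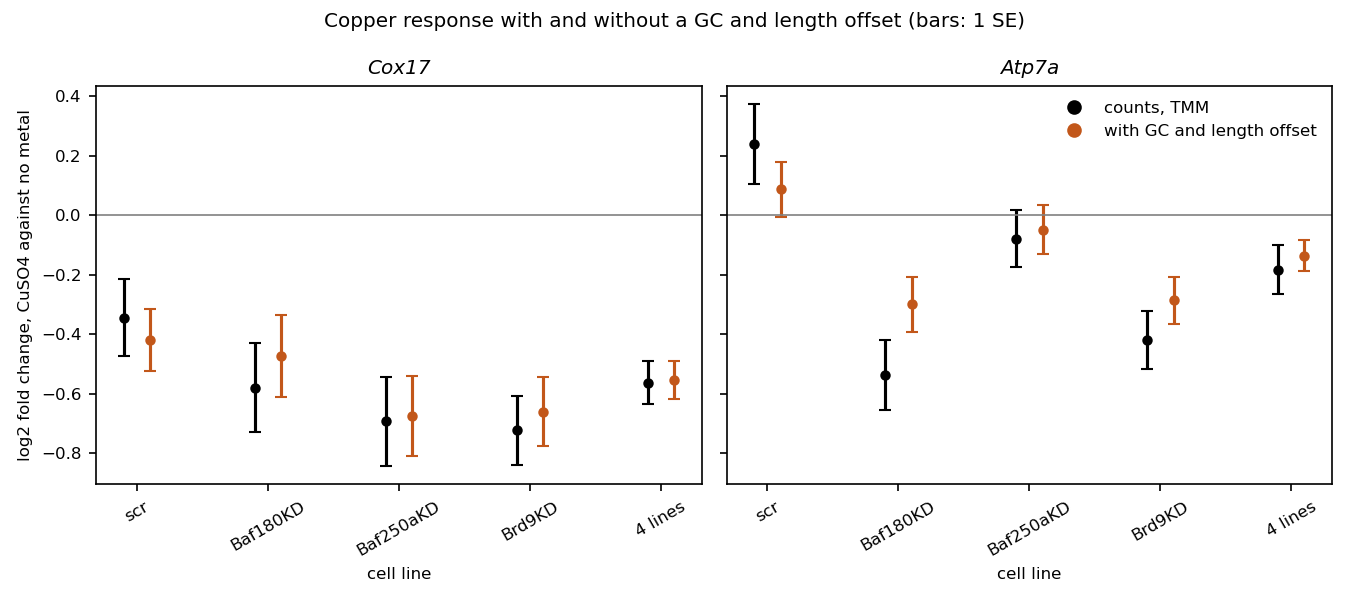
Log2 fold change with Cu against NT of Cox17 and Atp7a in each of the 4 lines and over the 4 lines together, from edgeR without (black) and with (orange) an offset for GC content and length; bars are 1 SE. All Cox17 points lie below 0, from -0.34 in scr to -0.72 in Brd9 KD, while Atp7a runs from 0.24 in scr to -0.54 in Baf180 KD.

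The larger part of the variation in Cox17 lay between the lines. Of the variance of its log2 CPM over the libraries, 83.4% lay between lines, 14.7% between treatments of a line and 1.97% between replicates. Untreated, it was lower than in scr by -0.86 in Baf180 KD (0.549 times, SE 0.156, edgeR adjusted p = 0.00111), -1.36 in Baf250a KD (0.390 times, SE 0.132, edgeR adjusted p = 2.28e-06) and -0.49 in Brd9 KD cells (0.712 times, SE 0.128, edgeR adjusted p = 0.0237). With the offset these were -1.02, -1.52 and -0.61, all called. The Brd9 KD call was lost without NT replicate 1 (-0.46) or NT replicate 2 (-0.55) of that line. Over the 3 treatments the differences were -1.05 (SE 0.0932, edgeR adjusted p = 1.08e-06), -1.55 (SE 0.095, 8.32e-09) and -0.64 (SE 0.0789, 3.11e-05), and no single library ended these calls. In bulk RNA, fewer cells that express a gene and less RNA per cell cannot be told apart. For Cox17, whose annotated exons together span the whole gene, the counts do not separate spliced from unspliced RNA.

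Sco1, which places copper in cytochrome c oxidase, was lower in untreated Baf180 KD and Baf250a KD cells. The scr libraries were at 20.71 and 23.83 CPM, Baf180 KD at 16.99 and 15.45 CPM, Baf250a KD at 15.48 and 16.72 CPM and Brd9 KD at 19.64 and 16.83 CPM. All 6 lay below both scr libraries, but the share of all genes separated in this way is not given. The log2 fold changes were -0.47 (0.720 times, SE 0.141, edgeR adjusted p = 0.0185), -0.50 (0.706 times, SE 0.136, edgeR adjusted p = 0.00659) and -0.28 (edgeR adjusted p = 0.168). With the offset they were -0.54 (edgeR adjusted p = 0.00466), -0.58 (0.000616) and -0.32 (0.0852). The Baf180 KD call was lost without scr NT replicate 2 (-0.37), KD NT replicate 1 (-0.57) or KD NT replicate 2 (-0.45), and the Baf250a KD call without its NT replicate 1 (-0.46). Over the 3 treatments Sco1 was lower by -0.28 in Baf180 KD (edgeR adjusted p = 0.0119) and -0.39 in Baf250a KD cells (0.00141), calls that no single library ended. In Brd9 KD it was -0.16 (edgeR adjusted p = 0.0879), which passed with the offset (0.0201). No metal response of Sco1 was called.

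Sco2, the paralog of Sco1 that acts beside it, rose with Cu in Baf180 KD cells, from 7.75 and 5.68 CPM to 12.19 and 10.93 CPM. The log2 fold change was 0.75 (1.68 times, SE 0.17, edgeR adjusted p = 0.0219), 0.57 with the offset (edgeR adjusted p = 0.0613) and 0.58 with the offset and the replicate block (0.0419). Without Cu replicate 1 it was 0.67 and without NT replicate 2 it was 0.56, neither called. In scr cells Sco2 was at 7.76 and 11.46 CPM untreated and 9.998 and 9.15 CPM with Cu. Most of its exon bases are shared with Tymp. The counting options stated in the methods name no setting that counts read pairs overlapping several genes, so these counts may lack pairs from the shared bases.

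Commd1, which takes part in the trafficking of ATP7A and ATP7B, rose with Cu in Baf180 KD cells and was lower in each untreated KD line than in scr. In Baf180 KD cells it was at 21.15 and 20.59 CPM untreated and at 34.18 and 29.25 CPM with Cu, and the groups did not overlap. The log2 fold change was 0.57 (1.48 times, SE 0.114, edgeR adjusted p = 0.015), and 0.75 with the offset (edgeR adjusted p = 0.00457). Without Cu replicate 1 (0.45), NT replicate 1 (0.56) or NT replicate 2 (0.57) it was not called. In scr cells Commd1 was at 31.10 and 35.93 CPM untreated, 26.72 and 31.23 CPM with Cu and 26.09 and 23.43 CPM with Zn, and the change with Zn of -0.42 did not pass (edgeR adjusted p = 0.0554; DESeq2 adjusted p = 0.0325).

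Against untreated scr, Commd1 was at -0.70 in Baf180 KD (0.617 times, SE 0.129, edgeR adjusted p = 0.00131), -0.996 in Baf250a KD (0.501 times, SE 0.127, edgeR adjusted p = 2.54e-05) and -0.66 in Brd9 KD cells (0.632 times, SE 0.128, edgeR adjusted p = 0.00817). The Baf250a KD libraries were at 16.96 and 17.43 CPM and the Brd9 KD libraries at 22.12 and 19.91 CPM, below both scr libraries, as were the Baf180 KD libraries. With the offset the values were -0.95, -1.29 and -0.87, all called. The Brd9 KD call was lost without its NT replicate 2 (-0.62). Over the 3 treatments the Baf250a KD difference was called without the offset (-0.71, edgeR adjusted p = 7.82e-05), beside -0.21 in Baf180 KD (0.202) and -0.29 in Brd9 KD (0.0503), where the offset gave -0.34 (0.0476).

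Whether a metal response differed between a KD line and scr was tested as an interaction over all 24 libraries. These differences share the scr libraries, including scr NT replicate 2. For Cu in Baf180 KD, 2 of 10 copper genes were higher and 1 lower, with 12.8% of all genes called. For Cu in Baf250a KD and Brd9 KD, edgeR called none (0.0121% and 0.0363% of all genes; 1 and 3 at an unadjusted p under 0.05; 0 and 0 by DESeq2). For Zn, 4 were higher and 1 lower in Baf180 KD (28.7% of all genes called), 2 higher and 1 lower in Baf250a KD (30.5%) and 2 higher in Brd9 KD (11.1%).

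The Atp7a response to Cu was lower in Baf180 KD than in scr by -0.72 (SE 0.158, edgeR adjusted p = 0.0102). The offset gave -0.39 (edgeR adjusted p = 0.0753), and the call was lost without scr NT replicate 2 (-0.56), Baf180 KD Cu replicate 1 (-0.66) or Baf180 KD NT replicate 2 (-0.64). For Commd1 the Cu response was higher in Baf180 KD by 0.83 (SE 0.172, edgeR adjusted p = 0.00913), and by 1.09 with the offset (0.00798). That call was lost without scr NT replicate 2 (0.71) or Baf180 KD Cu replicate 1 (0.71). For Sco2 it was higher by 0.83 (SE 0.262, edgeR adjusted p = 0.042), a call that the offset removed (edgeR adjusted p = 0.227) and that was lost without any 1 of 10 libraries. The values without each of these 10 ran from 0.50 (scr NT replicate 2) to 0.83: scr Cu replicate 2 gave 0.74, Baf180 KD Cu replicate 1 0.75 and NT replicate 2 0.62. The others were scr Zn replicates 1 and 2 and Baf250a KD Cu replicates 1 and 2 and NT replicate 1 (0.83 each) and Baf250a KD NT replicate 2 (0.81).

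The Zn response of Ccs was higher than in scr in all 3 KD lines: by 1.14 in Baf180 KD (SE 0.242, edgeR adjusted p = 0.00232), 1.45 in Baf250a KD (SE 0.254, 0.000484) and 0.98 in Brd9 KD cells (SE 0.247, 0.0274). With the offset these were 0.62 (edgeR adjusted p = 0.0644), 0.91 (0.00661) and 0.58 (0.198). In Baf180 KD no single library ended the call. In Baf250a KD it was lost without Zn replicate 1 (0.66), and in Brd9 KD without scr NT replicate 2 (0.83), scr Zn replicate 1 (1.04), scr Zn replicate 2 (0.91), Brd9 KD NT replicate 2 (0.81) or Zn replicate 1 (0.87).

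The Zn response of Commd1 was also higher than in scr in the 3 KD lines: by 0.73 in Baf180 KD (SE 0.174, edgeR adjusted p = 0.00456), 0.66 in Baf250a KD (SE 0.196, 0.015) and 0.75 in Brd9 KD cells (SE 0.175, 0.0249). With the offset the differences were 1.02 (edgeR adjusted p = 0.00425), 0.92 (0.00603) and 0.95 (0.063). In Baf180 KD no single library ended the call. In Baf250a KD it was lost without scr NT replicate 2 (0.54), scr Zn replicate 2 (0.57), NT replicate 2 (0.62) or Zn replicate 1 (0.68). In Brd9 KD it was lost without scr NT replicate 2 (0.63), scr Zn replicate 1 (0.83), scr Zn replicate 2 (0.66), Brd9 KD NT replicate 2 (0.66) or Zn replicate 1 (0.63).

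The Zn response of Atp7a was lower than in scr by -0.49 in Baf180 KD (edgeR adjusted p = 0.0256) and -0.47 in Baf250a KD cells (0.04). With the offset these were -0.10 (edgeR adjusted p = 0.637) and -0.09 (0.681). The Baf180 KD call was lost without scr NT replicate 2 (-0.32), scr Zn replicate 1 (-0.50), scr Zn replicate 2 (-0.49), Baf180 KD NT replicate 2 (-0.41) or Zn replicate 1 (-0.40). The Baf250a KD call was lost without any 1 of scr NT replicate 2 (-0.31), scr Zn replicates 1 and 2 (-0.48 each), Baf250a KD NT replicate 1 (-0.50), NT replicate 2 (-0.52), Zn replicate 1 (-0.63) and the shallow Zn replicate 2 (-0.45). In Baf180 KD the Zn response was also higher for Atox1 (0.53, SE 0.183, edgeR adjusted p = 0.0338) and Sco2 (0.85, SE 0.268, 0.0221). Neither passed with the offset, where Atox1 was at -0.24 and Sco2 at 0.30 (edgeR adjusted p = 0.424). In Baf250a KD the Zn response of Atox1 was 0.18 above that of scr (edgeR adjusted p = 0.525), and with the offset -0.64 (0.00512). The Atox1 call was lost without scr NT replicate 2 (0.30), scr Zn replicate 1 (0.50), scr Zn replicate 2 (0.56), Baf180 KD NT replicate 2 (0.41), Zn replicate 1 (0.43) or Baf250a KD NT replicate 2 (0.46). The Sco2 call was lost without scr NT replicate 2 (0.52), scr Zn replicate 2 (0.78), Baf180 KD NT replicate 2 (0.64) or Zn replicate 2 (0.75).

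The balance of export to import was described by the log2 ratio of Atp7a to Slc31a1 CPM in each library. In Baf180 KD it was -0.70 and -0.31 untreated and -1.08 and -1.005 with Cu. In Brd9 KD it was -0.86 and -0.69 untreated and -1.15 and -1.28 with Cu, and in Baf250a KD -0.33 and -0.28 against -0.48 and -0.50. In these 3 lines the Cu libraries lay below both untreated ones, but the share of other gene pairs ordered so is not given. In scr the untreated libraries were far apart, at -0.58 and -1.09, and overlapped the Cu libraries at -0.85 and -0.49. Over the 4 lines the mean change with Cu was -0.249, which did not pass an exact permutation test within lines (two-sided p = 0.0633, adjusted p = 0.127 over the 2 metals; 1296 permutations, smallest possible p 0.00154). Without the scr line it was -0.385 (exact permutation p = 0.00926, the smallest that 216 permutations can give). Without Baf180 KD it was -0.153 (exact permutation p = 0.278), without Brd9 KD -0.187 (0.259) and without Baf250a KD -0.27 (0.13), so the value depends on the lines included. With Zn the mean change was -0.0986 (exact permutation p = 0.406).

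**Figure D4:**
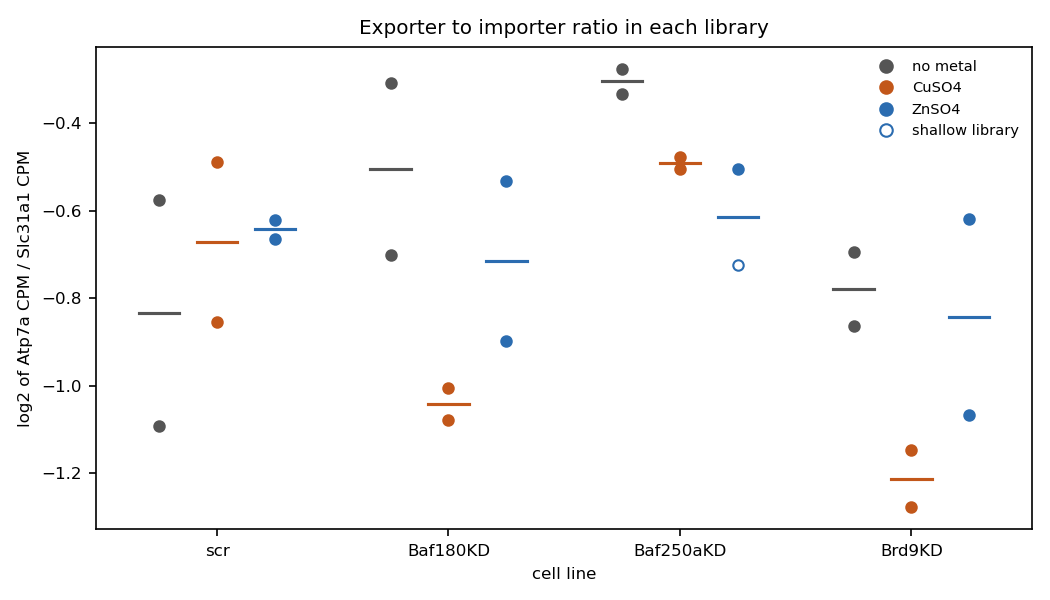
Log2 ratio of Atp7a CPM to Slc31a1 CPM in each of the 24 libraries by cell line and treatment; each point is a library. In the 3 KD lines both Cu points lie below both untreated points, and in scr the untreated points at -0.58 and -1.09 overlap the Cu points at -0.85 and -0.49.

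Other genes of copper handling were read from 4 lists, of which up to 4 genes each are named. With Cu over the 4 lines, 3.85% of all genes were called. Over the 4 lines with Cu, edgeR called none of 14 genes of the COMMD, CCC and retriever complexes that recycle ATP7A and other cargo, with 4 at an unadjusted p under 0.05. Their median was 0.08, against 0.00 over all genes. The smallest adjusted p were those of Vps29 (0.15, edgeR adjusted p = 0.0867), Ccdc22 (0.34, 0.16), Commd4 (0.16, 0.239) and Vps35l (0.12, 0.281). Of 12 genes for enzymes that use copper, edgeR called none, with 3 at an unadjusted p under 0.05. The lysyl oxidases Loxl2 and Loxl1, which cross-link collagen, changed by -0.30 (edgeR adjusted p = 0.0881) and -0.18 (0.148), and both passed with the offset (0.0402 and 0.00314), which called 2 enzymes higher and 2 lower. Sod1, the client of CCS, changed by 0.20 (edgeR adjusted p = 0.299; 0.0213 with the offset) and the amine oxidase gene Aoc3 by -0.45 (0.152). Of 10 other genes that deliver copper to or assemble cytochrome c oxidase, edgeR called none and 0 had an unadjusted p under 0.05, among them Cox11 (-0.15, edgeR adjusted p = 0.392) and Slc25a3, the mitochondrial phosphate and copper carrier (0.10, 0.515). None of the 8 metal-responsive genes tested was called by edgeR with Cu, and 2 had an unadjusted p under 0.05; with the offset Steap1 was called (0.23, edgeR adjusted p = 0.0497).

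In Baf180 KD cells with Cu, 2 of the 14 COMMD, CCC and retriever genes rose, Commd2 (0.48, edgeR adjusted p = 0.0213; 0.0103 with the offset) and Commd9 (0.41, 0.036; 0.152 with the offset). Commd3 fell (-0.44, edgeR adjusted p = 0.0329; 0.0471 with the offset). Of the 12 copper-using enzymes, Sod1 rose (0.48, edgeR adjusted p = 0.0124), and Loxl2 (-0.58, 0.0298; 0.035 with the offset) and Cp, which encodes the ferroxidase ceruloplasmin (-0.45, 0.0194; 0.724 with the offset), fell. Cox20, an assembly factor of the COX2 subunit, fell (-0.74, edgeR adjusted p = 0.0362; 0.105 with the offset) as the 1 call among 10 genes of that list. The metalloreductase gene Steap1 rose (0.44, edgeR adjusted p = 0.0426) as the 1 call among 8 metal-responsive genes. These shares stand beside the 13.8% of all genes called.

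In the untreated KD lines, the genes that deliver copper to cytochrome c oxidase are given beside the share of all genes called. In Baf180 KD 5 of 10 were lower and 1 higher (41% of all genes called; 6 and 1 with the offset), in Baf250a KD 4 lower and 2 higher (57.8%; 3 and 2) and in Brd9 KD 3 lower and 1 higher (29.2%; 3 and 1). Slc25a3 was at -0.56, -1.06 and -0.51 in the 3 lines and Cmc2, a small protein of cytochrome c oxidase assembly, at -0.56, -1.02 and -0.65, while Cox20 was higher at 1.01, 0.998 and 0.74. Of the enzymes that use copper, 6 were higher and 3 lower of 12 in Baf180 KD, 6 and 2 of 12 in Baf250a KD and 4 and 2 of 11 in Brd9 KD cells, against the same shares of all genes. With the offset these were 5 and 3, 5 and 3, and 4 and 1. Of the 14 COMMD, CCC and retriever genes, 0 were higher and 2 lower, 1 and 2, and 0 and 2 in the same order, and 1 and 7, 2 and 7, and 0 and 4 with the offset. With Zn in scr cells, where 17.6% of all genes were called, 3 of 12 of these enzymes were higher and 2 lower, 2 of 14 COMMD, CCC and retriever genes were lower, 1 of 10 cytochrome c oxidase genes was higher and 4 of 8 metal-responsive genes were higher. With the offset 3 metal-responsive genes and none of the other 3 lists were called. All shares of this paragraph are from fits without the offset.

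The genes whose levels most resembled those of 3 of the copper genes were found from the 12 condition means of log2 CPM, among 10421 genes. For Atp7a the 3 highest Pearson correlations were those of Edem3 (0.952), Dnajb14 (0.942) and Mef2a (0.941). For Slc31a1 they were Usp14 (0.931), Btbd3 (0.927) and Lcor (0.908), and for Atox1 they were Rdh13 (0.974), Ppil2 (0.967) and Grb2 (0.966). These points share libraries and their GC slopes, and the values describe likeness over 12 conditions only.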

How the data were processed

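Counts of read pairs per gene were deposited by the authors as whole numbers, not normalized, after alignment to mm10 with STAR and strand-specific counting with featureCounts (versions not given in the sources used here); libraries were depleted of ribosomal RNA with RNase H. Deposited tables of the authors' own DESeq2 comparisons hold fold changes and p-values and were not used.

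Counts were fitted over all genes in R 4.3.3 with edgeR 4.0.16 (quasi-likelihood test, TMM, filterByExpr, Benjamini-Hochberg adjusted p under 0.05). Each line's metal responses were fitted on its 6 libraries, untreated lines on 4 libraries, lines with treatment as a block on 12, and interactions and responses over the 4 lines on 24. CPM are TMM-scaled, and log2 CPM had a prior count of 2. The offset for GC content and length was a spline trend of each library (5 degrees of freedom each), from GENCODE M21 for 53292 of 55291 symbols. Scripts were tested on simulated data. Alternatives were DESeq2 1.42.0, RLE size factors, other filters, all 24 libraries, the replicate block, the offset, thinned counts, a minimum fold of 1.5 and leaving out each library. Replicate numbers carry no stated meaning; deviations of same-numbered libraries correlated at 0.166 to 0.315 in all 3 pairs of Baf180 KD groups, where blocked values are given, and between -0.239 and 0.338 in the 9 pairs of the other lines. The alternatives' effect is given in the closing section. Total counts (495778 to 75179394, median 22158430) set the precision.

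All 10 genes are named. Up to 4 genes of each other copper list are named by the smallest p with Cu over the 4 lines and in Baf180 KD, and 3 genes of most similar pattern (mean of at least 5 CPM) for each of Atp7a, Slc31a1 and Atox1. The genes and lists were chosen with earlier results of these data known. Protein sequences were not used here.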

Additional observations from a re-analysis of the deposited data

Results flagged for a closer look

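These results were flagged because a metal response in a KD line differed from that in scr by a test of the difference itself (the interaction in edgeR, adjusted p under 0.05); the differences of a metal share the scr libraries. For Cu in Baf180 KD they were Atp7a (-0.724 on the log2 scale), Sco2 (0.833) and Commd1 (0.832). For Zn in Baf180 KD they were Atp7a (-0.488), Atox1 (0.535), Ccs (1.14), Sco2 (0.852) and Commd1 (0.731). For Zn in Baf250a KD they were Atp7a (-0.474), Ccs (1.45) and Commd1 (0.659), and for Zn in Brd9 KD they were Ccs (0.985) and Commd1 (0.748). The slopes on GC content were 0.342 in scr NT replicate 2 and -0.281 and -0.337 in the scr Zn libraries, and their part in these differences was not tested beyond the offset. With the offset the differences for Commd1 with Cu and Zn in Baf180 KD and with Zn in Baf250a KD, and for Ccs with Zn in Baf250a KD, were called.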

How the results depend on the processing

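Of the 47 calls, 47 were kept with RLE size factors and with a filter at a mean of 1 CPM, 46 with the replicate block, 44 by DESeq2, 43 with a filter of at least 1 count, 32 of 33 with all 24 libraries, 30 with the GC and length offset (2 reversed), 33 with the offset and block (2 reversed), 5 with a minimum fold change of 1.5 and 3 of 37 in counts thinned to the shallow library (1 reversed). Of 1264 recomputed values of single genes, 1030 kept direction and side of the threshold, 201 no longer passed, 4 newly passed and 29 reversed; the cause was not tested.

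Counts of copper genes called that moved were as follows. Thinned, 0 were called for Zn in scr, Cu in Baf180 KD and Baf250a KD, Zn in Baf250a KD, untreated Baf180 KD and Brd9 KD, Brd9 KD with treatment as a block, the interactions of Baf180 KD, of Zn in Baf250a KD and of Zn in Brd9 KD, and Cu over the 4 lines, and 1 each in untreated Baf250a KD and in Baf180 KD and Baf250a KD with treatment as a block. A minimum fold change of 1.5 gave the same counts except 2 in untreated Baf250a KD and 1 for the Zn interaction of Baf250a KD. The offset gave 0 for Zn in scr, 1 for Cu in Baf180 KD, 2 for Zn in Baf250a KD, 1 for Cu in Brd9 KD, 5 and 7 in Baf180 KD and Brd9 KD with treatment as a block, 1 for each interaction of Baf180 KD and 0 for Zn in Brd9 KD. All 24 libraries gave 5 for Zn in scr, 0 for Zn in Baf250a KD, 1 for Cu in Brd9 KD and 6 in Baf180 KD with treatment as a block. A filter of at least 1 count gave 3 for Zn in scr, 2 for Cu in Brd9 KD and 1 for the Cu interaction of Brd9 KD. DESeq2 gave 2 for Zn in scr, 0 for Cu and for Zn in Baf250a KD and 1 for Cu in Brd9 KD. The replicate block gave 0 for Zn in scr and 5 for Cu in Baf180 KD, and changed no other count by over 1.5 times. For Cu in Baf180 KD the block called 25.5% of all genes, against 13.8% without it. With the offset and block the counts were 0 for Zn in scr, 4 for Cu in Baf180 KD (10.1% of all genes) and 2 for Zn in Baf250a KD. They were 1 for Cu in Brd9 KD, 5 in Baf180 KD with treatment as a block, 1 for each interaction of Baf180 KD and 1 for the Zn interaction of Brd9 KD. The share of all genes called is not given for the other alternatives or with 1 library left out. Those counts therefore have no background beside them. The ratio of Atp7a to Slc31a1 with Cu (-0.249) was -0.385 without scr (exact permutation p = 0.00926), -0.153 without Baf180 KD (0.278), -0.27 without Baf250a KD (0.13) and -0.187 without Brd9 KD (0.259).

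With 1 library left out the counts were 0 to 4 for Zn in scr, 0 to 4 for Cu in Baf180 KD, 0 to 1 for Cu and for Zn in Baf250a KD, 0 to 1 for Cu in Brd9 KD, 4 to 7, 3 to 7 and 0 to 4 in untreated Baf180 KD, Baf250a KD and Brd9 KD, 3 to 4, 4 to 5 and 3 to 5 with treatment as a block, 0 to 4, 0 to 0 and 0 to 1 for the Cu interactions, 2 to 5, 0 to 3 and 0 to 4 for the Zn interactions and 1 to 2 for Cu over the 4 lines. The lone library of a group was assumed to vary like the others.

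Most reversals were in Slc31a1, whose changes were near 0 before any alternative was applied. With Cu in scr it was at -0.092 with the offset, -0.099 with offset and block, -0.32 thinned and between -0.047 and 0.215 with 1 library left out (reversed without scr Cu replicate 1), and with Zn in scr it was at -0.226 with the offset and -0.230 with offset and block. With Cu in Baf180 KD it was at -0.0085 with the 1 CPM filter and between -0.083 and 0.090 with 1 library left out. With offset and block it was at 0.27 there, which is no reversal. With Zn in Baf180 KD it was at 0.155 with the offset, 0.158 with offset and block, 0.014 with all 24 libraries, 1.7e-05 by DESeq2 and between -0.084 and 0.089 with 1 library left out. With 1 library left out it was also between -0.0076 and 0.170 with Cu in Baf250a KD, between -0.049 and 0.083 with Cu in Brd9 KD and between -0.099 and 0.136 with Zn in Brd9 KD. Atp7a reversed with Zn in scr (-0.021) and Cu in Baf250a KD (0.038) when thinned and was between -0.152 and 0.062 with Zn in Brd9 KD with 1 library left out (reversed without Zn replicate 1). Ccs with Zn in Baf250a KD was between -0.112 and 0.738 with 1 library left out (reversed without Zn replicate 1). Atox1 in untreated Baf250a KD was at 0.0088 with the offset and 0.012 with offset and block, and its Zn interaction in Baf180 KD at -0.24 with either. Sco1 in untreated Baf250a KD was at 0.51 when thinned. The depth of the shallow library limits the Baf250a KD Zn values: without it the Zn interaction of Atp7a in Baf250a KD (-0.45) was not called.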
